A study of Mus musculus with 4 samples.

Results

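The killer lectin-like receptor genes code for C-type lectin-like proteins through which natural killer (NK) cells read the surface of other cells. The 10 genes described here, Klra3, Klra4, Klra7, Klra8, Klra9, Klrb1c, Klrc1, Klrc2, Klrd1 and Klrk1, are named by symbol, with no threshold on a measured value, and all 10 were present among the 31053 genes of each matrix. A further 16 genes with symbols beginning Klr served as a comparison list. Bone marrow mononuclear cells from 2 TLR9-/- mice and 2 wild-type (WT) mice, all on the C57BL/6 background and untreated, were profiled by droplet single-cell RNA-seq with 5′ unique molecular identifiers (UMIs), with 1 library per mouse. The mice were run in 2 experiments with 1 mouse of each genotype in each, and the labels do not say which libraries belong together. TLR9 is an endosomal receptor for unmethylated CpG DNA, and the knockout is germline, so every cell of a TLR9-/- mouse carries it. The study's methods describe the TLR9-/- and WT mice as bred in separate cages, so that genotype and cage cannot be told apart, and a group consisted of only 2 mice.

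In the mouse, the Klra genes encode the Ly49 receptors, homodimers many of which bind MHC class I molecules. Ly49C (Klra3), Ly49G (Klra7) and Ly49I (Klra9) are inhibitory, whereas Ly49D (Klra4) and Ly49H (Klra8) are activating and signal through the adaptor protein encoded by Tyrobp. Klrd1 (CD94) pairs with NKG2A (Klrc1), which inhibits, or with NKG2C (Klrc2), which activates, and the pairs recognise a non-classical MHC class I molecule. Klrk1 (NKG2D) is an activating receptor for stress-induced ligands, and Klrb1c encodes the antigen by which NK cells of C57BL/6 mice are usually stained. Each Ly49 gene is switched on in a part of the NK cells independently of the others, so that single cells carry different sets of receptors. The number and alleles of Klra and Klrb1 genes differ between inbred strains.

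All 10 genes lie on chromosome 6 (GRCm38), in the NK gene complex, between positions 128778485 and 130337574. Klrb1c (128778485 to 128789215) lies at one end, Klrd1 (129591782 to 129598775), Klrk1 (129610323 to 129623864), Klrc2 (129647496 to 129660689) and Klrc1 (129666015 to 129678973) in the middle, and the Klra genes at the other end, from Klra4 (start 130043731) through Klra8 (130115226), Klra9 (130178675) and Klra7 (130218605) to Klra3 (130323289). RefSeq promoter windows, 250 bases before to 50 after a transcription start, were found for 9 of the 10 genes, Klrd1 being the one without an entry. Where a gene had 2 entries, the one nearest to the GENCODE start was used. The windows of the activating receptor genes Klra4 (chr6:130067222-130067521, minus strand) and Klra8 (chr6:130129849-130130148, minus strand) and of Klra7 (chr6:130233273-130233572, minus strand) are shown because the first 2 genes had most of their UMIs in NK cells and the third was also found in T cells. The capitals mark the longest run, 14 bases, that all 3 windows share.
Klra4: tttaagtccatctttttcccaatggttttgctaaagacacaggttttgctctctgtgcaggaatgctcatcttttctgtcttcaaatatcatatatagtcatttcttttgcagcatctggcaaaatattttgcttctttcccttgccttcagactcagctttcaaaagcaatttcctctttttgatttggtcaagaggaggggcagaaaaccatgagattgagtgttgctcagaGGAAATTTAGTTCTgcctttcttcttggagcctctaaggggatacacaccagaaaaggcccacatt
Klra8: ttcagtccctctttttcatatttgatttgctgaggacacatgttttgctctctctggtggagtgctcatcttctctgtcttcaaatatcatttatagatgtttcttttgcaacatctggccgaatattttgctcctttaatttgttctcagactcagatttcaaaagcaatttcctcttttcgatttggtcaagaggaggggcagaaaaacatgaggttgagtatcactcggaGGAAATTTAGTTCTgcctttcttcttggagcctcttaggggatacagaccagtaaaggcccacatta
Klra7: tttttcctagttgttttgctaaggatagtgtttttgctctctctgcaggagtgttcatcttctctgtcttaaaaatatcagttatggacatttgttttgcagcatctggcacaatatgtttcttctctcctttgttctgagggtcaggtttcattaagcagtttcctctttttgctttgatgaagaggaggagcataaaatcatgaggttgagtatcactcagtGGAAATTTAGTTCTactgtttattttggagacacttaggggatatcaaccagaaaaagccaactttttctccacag

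The windows of Klra4 and Klra8 were 86.0% identical in a global alignment, against 73.7% for Klra4 with Klra7 and 74.3% for Klra8 with Klra7. Klra3 and Klra9 formed a second pair with 85.0% identity, and their windows were 44.8% to 53.0% identical to those of the other 3 genes. These values also depend on where the annotated starts place the windows, and do not rank the genes by relatedness. Transcripts of Klra8 were 81.0% and 80.1% identical to those of Klra3 and Klra9, and 70.1% to that of Klra4. The windows were also searched on both strands for 3 short motifs, namely the core of the RUNX motif (TGTGGT), that of the T-box motif (GGTGTG) and that of the TCF motif (CTTTGA), and no match overlapped another. All 4 of the non-Klra genes with a window, Klrb1c, Klrc1, Klrc2 and Klrk1, held TGTGGT, and 0 of the 5 Klra genes did, whereas 16.8% of 32851 RefSeq promoter windows held it. The start used for Klrb1c lay 574 bases from the GENCODE start, so that its window fell inside the GENCODE gene. For Klrc2 and Klra3 the distance was 93 and 52 bases. GGTGTG occurred in Klra4 alone of the 9 windows used (6257 of the 32851 windows), and CTTTGA in Klra7 and Klrk1 (5257 of them). The windows of Klrc1 (chr6:129678924-129679223, minus strand) and Klrb1c (chr6:128788592-128788891, minus strand) are given with TGTGGT or its complement in capitals. A match is a description of the letters and not a binding site.
Klrc1: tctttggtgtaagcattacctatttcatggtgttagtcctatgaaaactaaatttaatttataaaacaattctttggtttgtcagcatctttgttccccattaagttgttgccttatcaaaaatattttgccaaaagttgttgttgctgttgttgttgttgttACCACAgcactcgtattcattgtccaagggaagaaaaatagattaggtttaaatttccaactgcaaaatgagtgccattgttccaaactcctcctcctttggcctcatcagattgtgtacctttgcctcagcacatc
Klrb1c: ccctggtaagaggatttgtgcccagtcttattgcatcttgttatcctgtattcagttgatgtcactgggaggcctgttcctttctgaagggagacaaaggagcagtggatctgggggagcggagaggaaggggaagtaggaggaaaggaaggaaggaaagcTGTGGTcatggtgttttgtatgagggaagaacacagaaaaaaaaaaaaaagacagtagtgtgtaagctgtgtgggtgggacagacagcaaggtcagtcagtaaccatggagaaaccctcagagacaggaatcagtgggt

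The libraries held 8895 to 10781 cells after filtering, 39167 in all, and 112 to 185 cell barcodes occurred in both libraries of a pair. Clusters were built without any Klr gene, so that the levels below did not enter the definition of a class. NK cells numbered 182 and 46 in TLR9-/- replicates 1 and 2 and 106 and 50 in WT replicates 1 and 2, that is 1.69%, 0.516%, 1.00% and 0.562% of cells, and their leading genes were Gzma, Ncr1, Tyrobp and Prf1. Ncr1 had a UMI in 66.7% of the NK cells, Cd3e in 2.34% and Cd8a in 0 of 384. Natural killer-like T cells were made up of a subcluster led by Ly6c2 and Cd160 (359 cells, Cd3e in 74.7%, Cd8a in 13.1%) and a subcluster led by Art2b and Cxcr6 (198 cells, Cd3e in 79.8%, Cxcr6 in 60.6%). The CD8 T cells (261 cells) were led by Dapl1 and Ccr7, genes of naive T cells. Cd8b1 had a UMI in 55.2% of them, Cd8a in 39.8% and Cd4 in 8.43%, against Cd4 in 22.8% of the CD4 T cells. The class may therefore hold some CD4 T cells. Another 245 cells of the T and NK clusters were led by genes of neutrophils, monocytes, B cells or plasmacytoid dendritic cells and were kept apart as mixed. The summed level of the 12 neutrophil-lineage markers in the NK cells was 262 to 451 UMIs per 1000000 UMIs (CPM) in 3 libraries and 2498 CPM in WT replicate 2, and its part in the results was not tested.

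In NK cells every one of the 10 genes was detected in every library. Levels are given as CPM, that is UMIs of the gene per 1000000 UMIs of the class in the library. Because each UMI tags the 5′ end of 1 molecule, they were not divided by transcript length. Klrd1 had the highest level, with 1414 and 832 CPM in the TLR9-/- and 1878 and 1204 CPM in the WT libraries (524, 116, 251 and 108 UMIs), a mean of 1332 ± 436 CPM (SD, n = 4). It was followed by Klrb1c at 807 ± 109 CPM, Klra7 at 629 ± 128, Klra4 at 612 ± 117, Klra8 at 594 ± 95.1 and Klrk1 at 506 ± 38.4 CPM. Klrc1 at 235 ± 70.5, Klra9 at 213 ± 97.6, Klrc2 at 175 ± 73.4 and Klra3 at 160 ± 53.9 CPM formed the lower end of the order. Klrd1 lay above Klrb1c, and Klrk1 above Klrc1, in each library. The inhibitory Klra7 and the activating Klra4 and Klra8 had no constant order across the libraries. Among the 4 lowest genes Klrc1 lay above Klra3 in each library, whereas the ranges of neighbours in the order of the means overlapped.

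**Figure D1:**
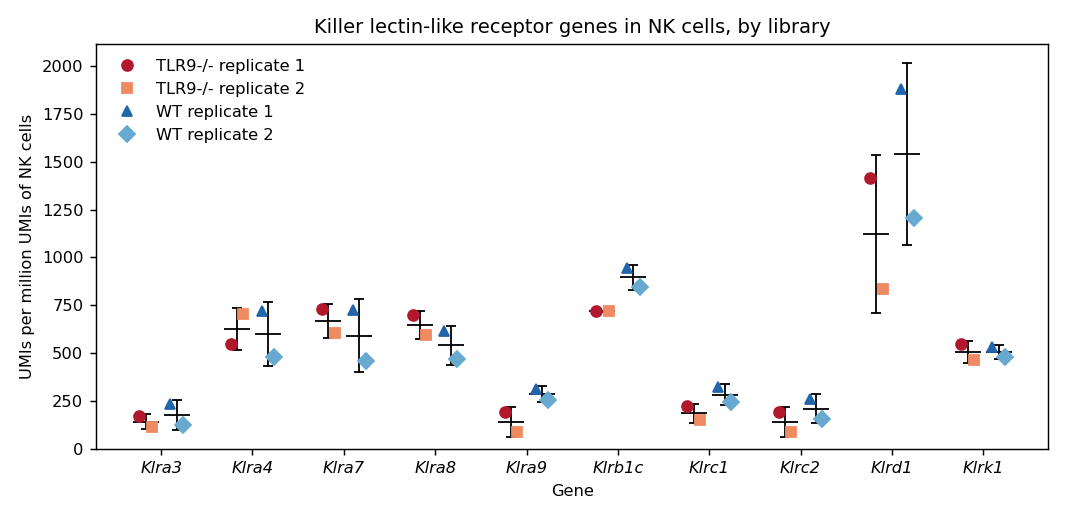
Each point is 1 library and shows UMIs per 1000000 UMIs of NK cells (linear axis) for 1 gene, and the horizontal bars with whiskers are the mean ± SD of the 2 libraries of a genotype. Klrd1 ranges from 832 to 1878, and for most genes the TLR9-/- and WT points overlap.

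The genes of this family share stretches of sequence, which limits how well their UMIs can be assigned. Of the 100-base windows in the longest coding transcript, 15.9% of those of Klrc1 and 12.8% of those of Klrc2 also occurred in another Klr gene. The share was 14.4% for Klra8, with Klra9 and a pseudogene as partners, 4.41% for Klra9 and at most 2.29% for the other members. Klra4, Klrd1 and Klrk1 had no such window. Transcripts of Klra3 and Klra9 were 93.1% identical to each other over a global alignment, so that single-base differences separate most of their reads. The split between Klrc1 and Klrc2 and between Klra3, Klra8 and Klra9 is therefore uncertain.

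UMIs of different sets of Klra genes were detected in single NK cells. How far UMIs missed at low depth account for these differences was not tested. Each cell was thinned to 1000 UMIs, which left 161, 45, 65 and 43 of the NK cells of the 4 libraries (TLR9-/- replicates 1 and 2, then WT replicates 1 and 2). At least 1 of the 5 Klra genes was detected in 78.3% (95% exact binomial interval 71.1 to 84.4) and 71.1% (55.7 to 83.6) of the cells of the TLR9-/- libraries, and in 80.0% (68.2 to 88.9) and 67.4% (51.5 to 80.9) of those of the WT libraries. Unthinned, the shares were 84.1%, 89.1%, 84.0% and 80.0%. In B lineage cells, which should lack these receptors, the pooled share was 2 of 10633 cells thinned to the same 1000 UMIs, or 0.0188%. Before thinning, the median depths of all cells of the class were 1124 to 1718 UMIs, against 1132 to 2544 in NK cells. The intervals cover counting error only. By gene, thinned NK cells with a UMI made up 38.7% ± 6.14 for Klra7, 39.0% ± 4.62 for Klra8, 31.5% ± 3.50 for Klra4, 16.4% ± 4.09 for Klra9 and 14.7% ± 7.38 for Klra3 (SD, n = 4). Klrd1 was found in 70.7% ± 9.61, Klrb1c in 49.9% ± 4.65 and Klrk1 in 41.8% ± 3.34 of the cells.

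Of the 314 thinned NK cells, 75 had a UMI for 0 of the Klra genes, 100 for 1, 84 for 2, 47 for 3, 7 for 4 and 1 for all 5. Since a cell that transcribes a gene can lack its UMI at this depth, these counts are lower limits of the number of genes per cell. Klra8 was detected in 47 of the 97 cells with Klra4 (48.5%) and in 75 of the 217 cells without it (34.6%), and the share was higher among cells with Klra4 in all 4 libraries. The same held for the inhibitory Klra7. Klra8 was detected in 58 of the 125 cells with Klra7 (46.4%) and in 64 of the 189 cells without it (33.9%). This share too was higher among cells with Klra7 in all 4 libraries. Klra7 itself was detected in 43.3% of the cells with Klra4 and 38.2% of those without, with the order reversed in TLR9-/- replicate 1. A Klra UMI was seen in 30 of the 53 cells with Klrc1, the gene of the inhibitory NKG2A (56.6%), and in 209 of the 261 cells without it (80.1%), again in the same direction in all 4 libraries. Cells are not replicates, and these co-detections are descriptions without a test.

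**Figure D2:**
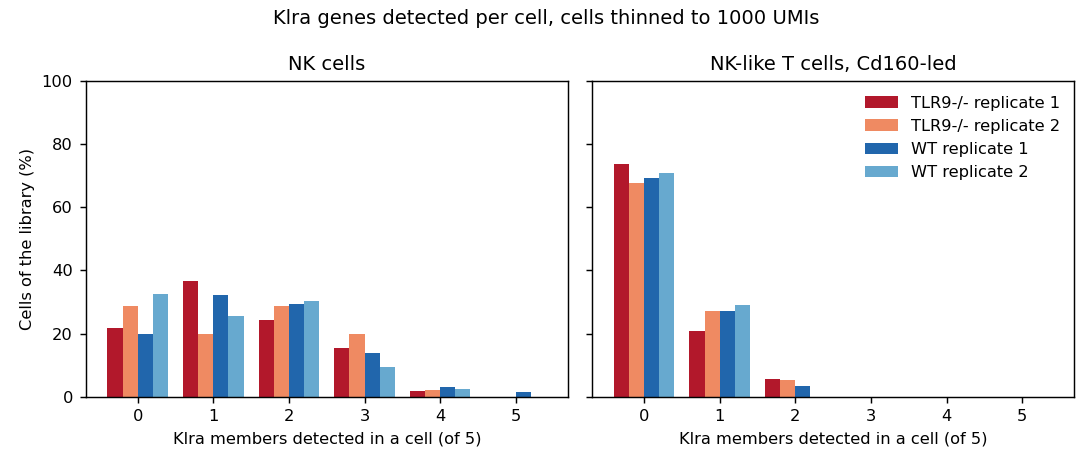
Bars show the percentage of each library's cells in which 0 to 5 of the 5 Klra genes had a UMI, after thinning to 1000 UMIs, in NK cells (left) and in the Cd160-led natural killer-like T cells (right). NK cells spread over 0 to 3 genes, whereas 237 of the 331 Cd160-led cells had 0 and at most 2 were detected in a cell.

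Outside the NK cells the receptor genes fell into groups. Klra4 and Klra8, both activating, had most of their UMIs in NK cells in each library. The inhibitory Klra9 also had 57.5% ± 22.3 of its UMIs there (SD, n = 4), from 27.3% in TLR9-/- replicate 2 to 79.3% in WT replicate 2. A majority as a mean over the libraries was thus not limited to the activating genes, but Klra9 lacked a majority in TLR9-/- replicate 2. In the Cd160-led natural killer-like T cells Klra4 had 9, 1, 0 and 5 UMIs and Klra8 had 4, 4, 0 and 0 UMIs in the 4 libraries, and in the Cxcr6-led cells both genes had 0 UMIs in every library, which allows up to 8.63 CPM in the pooled cells. NK cells held 67.2% ± 2.39 of all Klra4 UMIs and 73.1% ± 13.3 of all Klra8 UMIs (SD, n = 4), and the mixed subclusters another 19.1% ± 6.38 and 16.2% ± 9.79.

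The inhibitory Klra7 showed another distribution. Its level in the Cd160-led cells was 329 and 477 CPM in the TLR9-/- and 379 and 189 CPM in the WT libraries, so that in each library it was below that of the same library's NK cells (728, 603, 726 and 457 CPM) and above that of the Cxcr6-led cells (25.9, 22.2, 0 and 0 CPM). Klra7 supplied 70.1%, 80.3%, 83.5% and 52.6% of the Klra UMIs of the Cd160-led cells, against 31.1%, 28.7%, 27.9% and 25.6% in NK cells. Part of the Cd160-led cells carried Cd8a or Cd8b1 UMIs (77 of 359 cells), and Klra7 was present both with them (189 CPM, pooled) and without them (410 CPM). With them it had 111 and 72.8 CPM in TLR9-/- and 669 and 0 CPM in WT libraries (13, 3, 20 and 0 UMIs). Without them it had 419 and 690 against 324 and 199 CPM, so that the pooled order was reversed in WT replicate 1. Klra3 and Klra9 were low in both subclusters, with means of 31.5 to 54.4 CPM.

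Klrb1c, Klrc1, Klrc2, Klrk1 and Klrd1 were found in NK cells and in both kinds of natural killer-like T cells. Klrk1, for instance, had 254 ± 47.6 CPM in the Cd160-led and 188 ± 110 CPM in the Cxcr6-led cells (SD, n = 4), and Klrc1 had 144 ± 24.7 and 72.7 ± 51.5 CPM. In the naive-like CD8 T cells Klrd1 alone was present above a few UMIs, with 46 and 55 UMIs in the TLR9-/- and 6 and 6 UMIs in the WT libraries (290, 216, 165 and 98.3 CPM). Pooled, Klrd1 was at 293 CPM in the 155 cells of this class with Cd8a or Cd8b1 UMIs and at 76.9 CPM in the remaining 106. The other 9 genes had 0 to 3 UMIs each in the 261 CD8 T cells. Klrk1 was among those with 0 UMIs.

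**Figure D3:**
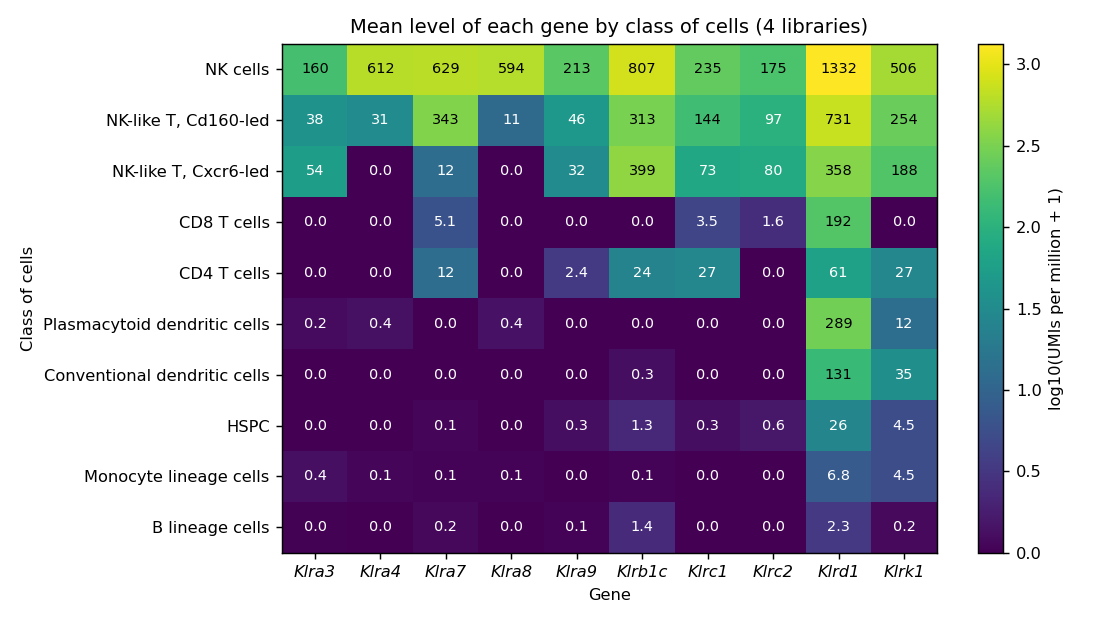
Rows are classes of cells, columns are genes, and each field gives the mean over the 4 libraries of UMIs per 1000000 UMIs of the class, coloured on a log10(value + 1) scale. Klra4 and Klra8 are highest in NK cells, Klra7 in NK and Cd160-led cells, and Klrd1 also in CD8 T and dendritic cells.

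Klrd1 was the only member with more UMIs in plasmacytoid dendritic cells than in NK cells, and this held in each library. Plasmacytoid dendritic cells, which make type I interferon in response to nucleic acids sensed by TLR7 and TLR9, held 730, 740, 675 and 363 Klrd1 UMIs in the 4 libraries, or 43.9% ± 10.0 of all Klrd1 UMIs (SD, n = 4), against 15.3% ± 5.78 in NK cells. On the CPM scale the level was 338, 256, 322 and 240 CPM, below NK cells in each library. A UMI was seen in 26.3% ± 3.46 of plasmacytoid dendritic cells thinned to 1000 UMIs, against 0.300% ± 0.181 of B lineage cells. The partners Klrc1 and Klrc2 had 0 UMIs in 2753 plasmacytoid dendritic cells, and so had Klrb1c. Klrk1 was present at 12.4 ± 3.28 CPM. Conventional dendritic cells contained Klrd1 at 131 ± 33.8 CPM and Klrk1 at 34.7 ± 8.26 CPM, and no thinned cell of the 467 had a Klra UMI, which allows a share of cells with a UMI of up to 0.642% at this depth and sets no limit on cells that transcribe the genes.

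**Figure D4:**
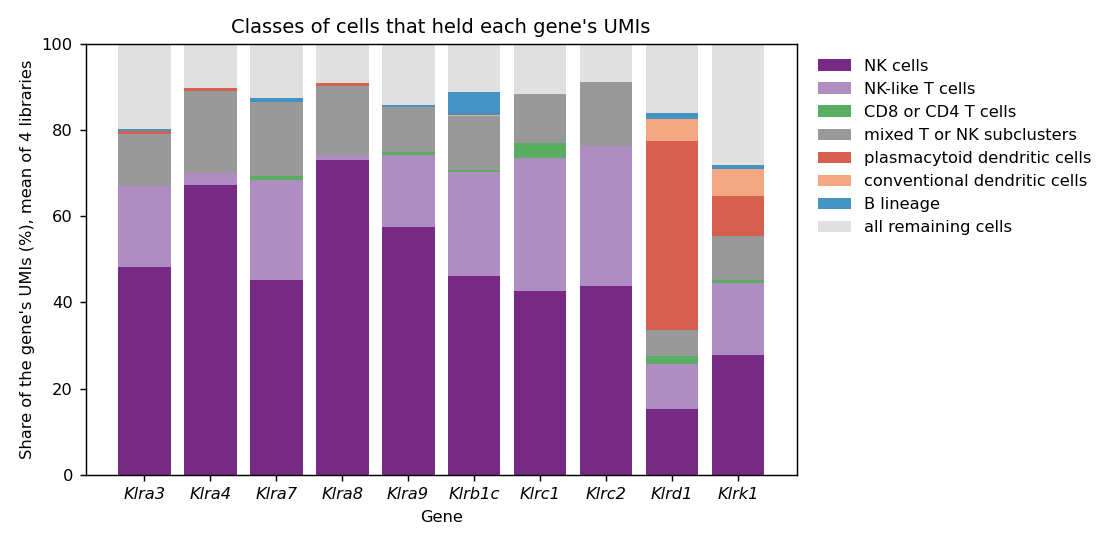
For each gene the stacked bar divides its UMIs among classes of cells, as the mean percentage over the 4 libraries (axis from 0 to 100%). NK cells held 73.1% of the Klra8 UMIs and 15.3% of the Klrd1 UMIs, and plasmacytoid dendritic cells held 43.9% of the latter.

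The comparison of TLR9-/- with WT mice asked whether the level of these genes differed between mice without and with the receptor. UMIs were summed per class and library and tested with edgeR's quasi-likelihood test with Benjamini-Hochberg adjustment over all genes tested. In NK cells all 10 members passed the filter and 0 of them passed an adjusted p of 0.05, in a comparison where 0.0530% of genes did (1 of 1888). At an unadjusted p under 0.05 there was 1 member, Klra9, against 114 of all genes. The median log2 fold change of the members was -0.32, against -0.01 over all genes tested. With DESeq2 0 of the 10 members were called as well. A fit with the replicate number as a block, in place of the unstated experiment, called 7 genes and 0 members.

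The Klra genes, which vary between mouse strains, were detected in both genotypes, and their estimated differences in NK cells did not pass the threshold. Klra4 had 548 and 703 CPM in TLR9-/- and 718 and 480 CPM in WT libraries, and its log2 fold change was 0.03 (SE 0.26, edgeR adjusted p = 0.999). Klra8 had 699 and 596 against 613 and 468 CPM (log2 fold change 0.25, SE 0.24, edgeR adjusted p = 0.993). Klra7 had 728 and 603 against 726 and 457 CPM, with a log2 fold change of 0.15 (SE 0.26). For Klra4 and Klra7 the groups overlapped, and for Klra8 the higher WT library lay between the TLR9-/- libraries. Klra9 had the largest estimate, with 194 and 86.1 CPM against 314 and 257 CPM, both TLR9-/- libraries being below both WT libraries (log2 fold change -0.93, SE 0.37, edgeR adjusted p = 0.769). These rest on 72, 12, 42 and 23 UMIs, and the log2 fold change was -1.72 without TLR9-/- replicate 1 and -0.54 without TLR9-/- replicate 2. Klra3 had 170 and 115 against 232 and 123 CPM, and its groups overlapped.

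Among the other members in NK cells, Klrc1 had a log2 fold change of -0.58 (SE 0.30), Klrc2 of -0.50 (SE 0.41), Klrd1 of -0.46 (SE 0.30), Klrb1c of -0.33 (SE 0.21) and Klrk1 of 0.00 (SE 0.23), with edgeR adjusted p from 0.841 to 0.999. With a library left out the log2 fold change ranged from -1.30 (without TLR9-/- replicate 1) to -0.04 (without WT replicate 1) for Klrc2, from -0.89 to -0.11 for Klrd1 with the same libraries left out, and from -0.91 (without TLR9-/- replicate 1) to -0.35 (without TLR9-/- replicate 2) for Klrc1. As a share of all member UMIs in NK cells, Klra8 made up 13.3% ± 0.575 in TLR9-/- and 9.66% ± 0.387 in WT libraries, Klra7 made up 13.6% ± 0.306 against 10.4% ± 0.994, Klra9 made up 2.78% ± 1.13 against 5.12% ± 0.447 and Klrc1 made up 3.77% ± 0.433 against 5.06% ± 0.199 (SD, n = 2 each). For these 4 of the 10 members the groups did not overlap. The exact permutation test, two-sided, gave 0.333 for each, the smallest value that 2 against 2 libraries allow and the one that any full separation gives. With no genotype difference a gene would separate fully with a probability of 0.333, so that some separated members are expected among 10. Shares of a common total depend on each other, and the count was not set against that of other genes. No result about these members is drawn from it. The share of thinned NK cells with a UMI of any Klra gene differed by 0.965 percentage points (exact permutation p = 1).

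Klrb1c in natural killer-like T cells was the largest difference that came close to the threshold. In the Cd160-led cells Klrb1c had 171 and 201 CPM in TLR9-/- and 352 and 529 CPM in WT libraries, and in the Cxcr6-led cells 238 and 167 against 562 and 627 CPM, so that in both subclusters each TLR9-/- library was below each WT library. The Cxcr6-led values rest on few cells, 118 and 38 in TLR9-/- and 26 and 16 in WT libraries. Over all natural killer-like T cells the log2 fold change was -1.33 (SE 0.25, edgeR adjusted p = 0.0526). Of the 10 members 8 were tested here and 0 were called, in a comparison where 0.216% of genes were called (6 of 2781). The call changed with the handling of samples. With the replicate number as a block Klrb1c passed the threshold (log2 fold change -1.30, edgeR adjusted p = 0.00138), as 1 of 12 genes called, and it also did so without WT replicate 2 (log2 fold change -1.11, edgeR adjusted p = 0.0392). The difference was smaller when the class was defined by a gate on UMIs of T and NK genes in place of clusters (log2 fold change -0.49, edgeR adjusted p = 0.993). The gate was applied to all cells and left out those with a Cd8a, Cd8b1 or Cd4 UMI. In TLR9-/- replicate 2 it held 130 cells with 921733 UMIs, against 76 cells with 209392 UMIs by clusters. The Cd160-led class differed in makeup between the genotypes, since Cd8a or Cd8b1 UMIs were found in 25.9% and 28.9% of its cells in the TLR9-/- and 13.1% and 8% in the WT libraries. Klrb1c was at 42.0 CPM (pooled) in those cells, which were 51 and 11 TLR9-/- and 13 and 2 WT cells. By library it had 17.1 and 0 CPM in TLR9-/- (2 and 0 UMIs) and 167 and 386 CPM in WT (5 and 1 UMIs). In the Cd160-led cells without such UMIs Klrb1c had 234 and 307 CPM in TLR9-/- and 388 and 536 CPM in WT libraries. This split keeps cells whose Cd8a or Cd8b1 UMIs went undetected, since only 155 of the 261 CD8 T cells passed the same gate. The part of the makeup in the Klrb1c difference was not tested. Klrb1c lay lower in the TLR9-/- NK cells as well, with 720 and 718 against 943 and 848 CPM.

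The difference between the effect in NK cells and that in all T cells was tested as an interaction, in which 10 members were tested and 0 called, where 0.00% of genes were called (0 of 3844 by edgeR, with 214 at an unadjusted p under 0.05). For Klrb1c this difference was 1.15 on the log2 scale (SE 0.26, edgeR adjusted p = 0.0605). Without TLR9-/- replicate 1 it was 1.73. All T cells were the natural killer-like, CD8, CD4 and gamma delta T cells together. Natural killer-like T cells were 315 of 483 and 76 of 243 of them in TLR9-/- replicates 1 and 2. In WT replicates 1 and 2 they were 125 of 167 and 41 of 86. The CD8 T cells had 0 Klrb1c UMIs. The part of this makeup in the Klrb1c interaction was not tested.

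**Figure D5:**
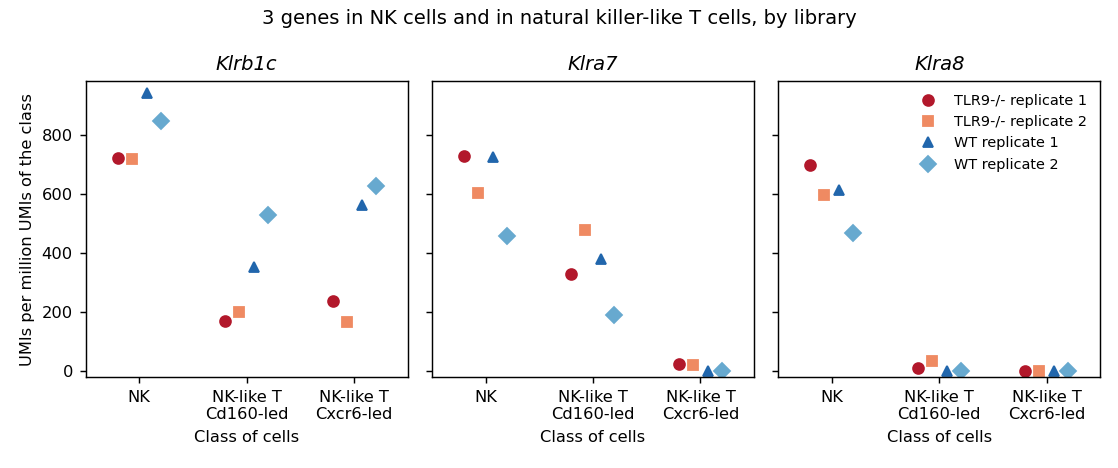
Points are libraries and show UMIs per 1000000 UMIs of the class for Klrb1c, Klra7 and Klra8 in NK cells and in the 2 subclusters of natural killer-like T cells. Klrb1c in the natural killer-like T cells is lower in both TLR9-/- libraries than in both WT libraries, Klra7 falls from NK to Cxcr6-led cells, and Klra8 is near 0 outside NK cells.

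The remaining members in natural killer-like T cells had log2 fold changes from -0.99 (Klrc2, SE 0.32, edgeR adjusted p = 0.662) to 0.44 (Klra3, SE 0.52). In the CD8 T cells Klrd1 was the one member tested, with a log2 fold change of 0.95 (SE 0.41, edgeR adjusted p = 0.905), where 0.00% of genes were called (0 of 1315). Cells with Cd8a or Cd8b1 UMIs made up 67.3% and 55.5% of this class in TLR9-/- and 45.5% and 57.1% in WT libraries. The part of this makeup in the estimate was not tested. In the CD4 T cells 0 members passed the filter. In all T and NK cells together 0 of 10 were called (0.206% of genes), all 10 estimates were below 0 and their median was -0.54, against -0.01 over all genes. With the replicate number as a block 2 members were called among 62 genes, Klrb1c (log2 fold change -0.91, edgeR adjusted p = 0.000426) and Klrc2 (log2 fold change -0.90, edgeR adjusted p = 0.0413), and without TLR9-/- replicate 1 Klrc2 alone was called. CD8 T cells, which lacked most members, made up 0.937% and 1.23% of cells in the TLR9-/- and 0.208% and 0.315% in the WT libraries (edgeR adjusted p = 0.0236 over 17 classes, 0.0798 to 0.241 with any 1 library left out), and the part of this shift in the pooled estimates was not tested. CD4 T cells made up 0.519% and 0.471% of cells in the TLR9-/- and 0.161% and 0.135% in the WT libraries (log2 fold change 1.73, SE 0.39). The part of this second shift in the pooled estimates was not tested either. The share of NK cells did not differ beyond the spread (log2 fold change 0.50, SE 0.60, edgeR adjusted p = 0.460). In all other cells 0 of 4 tested members were called (0.278% of genes). In plasmacytoid dendritic cells, a comparison added after Klrd1 had been seen there, Klrd1 had a log2 fold change of 0.07 (SE 0.23) and Klrk1 of 0.56 (SE 0.32), and 0 of these 2 were called (0.335% of genes).

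The partners of the receptors were examined as lists. Of the adaptors and proximal signalling genes, 13 of 19 were tested in NK cells and 0 passed in either direction. The 3 with the highest levels were Tyrobp, the adaptor of the activating Ly49 receptors, at 5512 ± 301 CPM, Fcer1g, an adaptor chain, at 3874 ± 517 CPM, and Hcst, the DAP10 adaptor of NKG2D, at 1140 ± 250 CPM (SD, n = 4). Tyrobp was lower in the Cd160-led cells, at 678 ± 122 CPM, whereas Hcst was present there at 1492 ± 240 CPM. Tyrobp was a marker of the NK class and was not left out of the clustering, so its difference is not independent of the class definition. Klra4 and Klra8 were also low in the Cd160-led cells, and a link with Tyrobp was not tested. Of the ligand genes, 4 of 11 were tested and 0 passed, and the highest were H2-K1 at 3496 ± 371 CPM, H2-D1 at 2270 ± 231 CPM, both classical MHC class I, and Clec2d, whose product binds Klrb1 receptors, at 399 ± 29.3 CPM. Of the genes of NK maturation and transcription factors, 10 of 20 were tested in NK cells and 0 passed, with Il2rb (999 ± 229 CPM), Id2 (663 ± 239 CPM) and Ets1 (304 ± 91.9 CPM) the highest. In natural killer-like T cells 1 of the 11 tested passed, Il7r, the interleukin-7 receptor chain, which had 150 and 181 CPM in TLR9-/- and 365 and 437 CPM in WT libraries (log2 fold change -1.34, SE 0.24, edgeR adjusted p = 0.0419). Its adjusted p was 0.0124 to 0.308 by edgeR with a library left out and 0.526 by DESeq2.

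Of the list of 20 other killer lectin-like receptor genes, 5 were tested in NK cells and 0 passed. The highest was Klre1 (737 ± 227 CPM, SD, n = 4), followed by Klrb1a (334 ± 35.9 CPM) and Klri2 (266 ± 48.6 CPM). Across the sums of 14 classes in 4 libraries (56 points that share libraries and depth), the non-Klr genes with the pattern most like the summed member level were Rgs3 (Pearson r = 0.87), Gbp8 (0.86), Ctsw (0.85), Arl4d (0.85) and Prkch (0.85), on the log2(CPM + 10) scale.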

How the data were processed

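The authors prepared droplet 5′ single-cell libraries from bone marrow mononuclear cells and deposited, per the labels, filtered UMI counts per gene and cell, made with Cell Ranger (version 3.0.1 in the matrix headers) and STAR on mm10. Their notes also name Seurat 2.3.4. The counts were raw, and 1 matrix belonged to each mouse. Here, cells with 200 to 10000 genes and at most 10% mitochondrial UMIs were kept (39167 of 40545), doublets were marked with scanpy's Scrublet but kept, and cells were clustered (Leiden, resolution 1, scanpy 1.11.5) without Klr genes and named from marker lists. In WT replicate 2 the doublet threshold marked 1 cell, so the highest scores were taken. UMI counts were summed per class and library (class totals in NK cells: 89665 to 370642 UMIs) and tested with edgeR 4.0.16 (quasi-likelihood, TMM, low-count filter with a minimum of 10), with DESeq2 1.42.0 as an alternative. A share of each library's cells was tested with edgeR over classes, and single values by exact permutation. The fit was tested on simulated data, where it recovered 85.5% of 200 genes changed 4-fold in NK cells (1888 genes) and 81.5% in natural killer-like T cells (2781 genes). All genes of a class were drawn with the same dispersion, and smaller changes were not simulated. No recovery rate for the members follows from it. Upper limits for 0 UMIs used 3 UMIs. Gene positions are from GENCODE M21 (GRCm38), matched by gene identifier, and promoter sequences from RefSeq (GRCm38.p6).

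The members, the gene lists and the tests were chosen with earlier results of these data known. Named were all members, the 3 genes of each list with the highest NK level, list genes that passed an adjusted p of 0.05 in a class, and the 5 non-Klr genes most like the members. Other settings were another scaling, no filter, each library left out, a replicate block, doublets left out, coarser subclusters (resolution 0.5), deeper cells and a gate. The study's methods describe 2 experiments with 1 mouse of each genotype in each, but neither they nor the labels tie the replicate numbers to an experiment. The numbers were therefore used as a block only in an alternative fit, and deviations of same-numbered libraries correlated at 0.24 to 0.30 over genes in the 4 sets of cells checked. Members are not independent of each other. The p-values rest on the spread between 2 mice a group, which were run in different experiments, so that mouse and experiment are mixed in it. The edgeR fit also moderates this spread with that of the other genes tested.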

Additional observations from a re-analysis of the deposited data

How the results depend on the processing

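Of the members in NK cells, 0 were called under any setting run, including each library left out, DESeq2, the gate and the replicate block. In natural killer-like T cells the number of members called was 0 to 1 with a library left out and 1 with the replicate block, in each case Klrb1c (log2 fold change -1.30 and edgeR adjusted p = 0.00138 with the block). In all T and NK cells together it was 0 to 1 with a library left out and 2 with the replicate block (Klrb1c and Klrc2), the 1 being Klrc2 without TLR9-/- replicate 1 (log2 fold change -1.65, edgeR adjusted p = 0.0487). In the interaction it was 1 without the filter (Klrb1c, 1.17, edgeR adjusted p = 0.0308) and 0 to 1 with a library left out. The replicate block takes equal numbers for 1 experiment, which no source states. It raised the genes called from 6 to 12 in natural killer-like T cells, from 1 to 7 in NK cells and from 13 to 62 in all T and NK cells together. The count of genes called in NK cells was 11 without the filter, 5 to 14 with a library left out and 2 with the gate. In natural killer-like T cells it was 12 without the filter, 3 with DESeq2, 1 with the gate and 2 to 17 with a library left out. In the remaining classes it moved most in all other cells, from 39 to 781 without the filter, 908 with DESeq2 and 1049 with the block, and in plasmacytoid dendritic cells, from 32 to 210 without the filter, 145 with the block, 53 with DESeq2 and 73 to 260 with a library left out (260 without WT replicate 2).

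The signs of small estimates turned. In NK cells Klra4 was -0.0018 with the block, and Klrk1 was 0.0087 by library totals, 0.097 without the filter and 0.033 in deeper cells. In natural killer-like T cells Klra7 was 0.026 by library totals, 0.068 without the filter, 0.056 with DESeq2, 0.30 with the gate and 0.24 in the Cd160-led cells alone. Klrc1 was 0.012 with the gate there, and Klrd1 was 0.55 in the Cxcr6-led cells alone. Klrd1 in plasmacytoid dendritic cells was -0.0018 without doublets. With a library left out, the NK ranges were -0.66 to 0.26 for Klra3, -0.22 to 0.34 for Klra4, -0.11 to 0.53 for Klra7 and -0.11 to 0.13 for Klrk1. In natural killer-like T cells they were -0.42 to 1.08 for Klra7, -0.083 to 0.65 for Klra9, -0.54 to 0.049 for Klrc1 and -0.53 to 0.67 for Klrd1, and for Klrd1 in plasmacytoid dendritic cells -0.16 to 0.36. The NK share of cells ranged from -0.60 to 1.10 on the log2 scale with a library left out, and the CD8 T share from 1.78 to 2.37. The natural killer-like T share was 1.20 in the main fit (edgeR adjusted p = 0.168) and 0.047 to 2.03 with a library left out. With the replicate block it was 1.13 (edgeR adjusted p = 0.00222). The difference in NK cells with any member UMI, 1.36 percentage points, was -6.84 at 500 UMIs and -2.16 at 2000 UMIs, and -0.19 to 2.92 with a library left out. The cause of these changes was not tested. With 89665 to 370642 UMIs in NK cells per library, the low genes rested on as few as 11 UMIs, which limits what could be detected. Coarser subclusters were not run for all other cells.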

Other observations

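Several killer lectin-like receptor genes outside the 10 were found mainly in cells other than T and NK cells. Klra2 had 0 UMIs in NK cells, and 70.5% ± 4.45 of its 2247 UMIs lay in the monocyte lineage (SD, n = 4), where its level was 75.7 ± 14.2 CPM. Klra17 also had 0 UMIs in NK cells, and 60.4% ± 5.97 of its 1314 UMIs lay in plasmacytoid dendritic cells, at 101, 101, 94.3 and 60.8 CPM in TLR9-/- replicates 1 and 2 and WT replicates 1 and 2. Klrb1f was present in NK cells at 149 ± 40.0 CPM, but 42.3% ± 9.14 of its UMIs came from the monocyte lineage.

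Klra1 had 9.21 ± 2.63 CPM in the B lineage, where the pooled level of each of the 5 Klra members was at most 0.2 CPM, and 43.2% ± 19.8 of its 768 UMIs lay there. Klra1 was also found in NK cells (130 ± 46.7 CPM) and in the Cd160-led natural killer-like T cells (189 ± 114 CPM). These genes were singled out after their values had been seen, and no test was made.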
